A study of Mus musculus with 6 samples.

Results

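The genes described here are 10 parts of the cellular response to low oxygen, chosen by name: the hypoxia-inducible factor (HIF) subunit genes Hif1a and Arnt, the HIF regulators Egln1, Egln3 and Vhl, and the hypoxia targets Vegfa, Adm, Pdk1, Bnip3 and Ndrg1. All 10 symbols were found among the 24794 rows of the deposited count table, 1 row each, and all 10 passed the filter on low counts that left 13779 genes. By the deposited table, Hif1a (ENSMUSG00000021109.14) and Egln3 (ENSMUSG00000035105.6) lie on chromosome 12, Arnt (ENSMUSG00000015522.20) on 3, Egln1 (ENSMUSG00000031987.7) on 8, Vhl (ENSMUSG00000033933.14) on 6, Vegfa (ENSMUSG00000023951.19) on 17, Adm (ENSMUSG00000030790.16) and Bnip3 (ENSMUSG00000078566.9) on 7, Pdk1 (ENSMUSG00000006494.12) on 2 and Ndrg1 (ENSMUSG00000005125.14) on 15. The values come from polyadenylated RNA of LLC cells (Lewis lung carcinoma, a mouse lung tumour line). In 3 libraries the cells carried transfected miR-291-3 mimics, small duplex RNAs that stand in for the natural microRNA, and in 3 they carried a control mimic; according to the design text the microRNA is miR-291a-3p and the study asks how raising it affects lung cancer cells. Nothing was given in the sources used here on oxygen level, mimic dose or time after transfection, and nothing says that the 3 libraries of a group were separate cultures, so the spread behind each p-value may be technical only.

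HIF is a dimer of an oxygen-labile alpha subunit, such as the product of Hif1a, and the stable beta subunit made from Arnt. When oxygen is present, the prolyl hydroxylases encoded by Egln1, Egln2 and Egln3 modify the alpha subunit, and the ubiquitin ligase that contains the Vhl protein then marks it for destruction. This control acts on the protein and not on the Hif1a mRNA measured here. HIF in turn activates genes that serve glucose use, blood vessel growth and mitochondrial turnover, and Egln3 is one of them. Mouse embryonic stem cells express miR-291a-3p from the miR-290 cluster.

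The library totals were 25376993 to 29058948 counts in mimic libraries and 28318155 to 32963986 in control libraries. Of the marker lists, the epithelial one summed to 539 to 553 CPM (counts scaled to the library total) in mimic libraries and 498 to 513 in control libraries, almost all of it Krt8, while Epcam and Cdh1 had at most 5 counts in any library. The mesenchymal list, mostly Vim, summed to 1917 to 1946 CPM in mimic libraries and 2237 to 2266 in control libraries. The leukocyte list summed to 4.47 to 5.79 CPM in mimic libraries and 7.10 to 11.1 in control libraries. The fibroblast list summed to 22.0 to 27.7 in mimic libraries and 30.3 to 34.4 in control libraries, and the endothelial list to 0.473 to 0.895 in mimic libraries and 0.388 to 0.609 in control libraries. Ptprc, the common leukocyte marker, had at most 4 counts in any library. Lyz2 was the most counted gene of the leukocyte list, named after its values were seen. It had 72 to 79 counts in mimic libraries and 144 to 208 in control libraries (log2 change -0.99, adjusted p = 2.76e-06, edgeR). The fibroblast sum was mostly Pdgfra, at 19.2 to 20.8 CPM in mimic libraries and 27.7 to 31.8 in control libraries. These Pdgfra values use TMM-scaled library totals, unlike the list sums. Lum rose 2.44-fold (edgeR adjusted p = 2.01e-05), and Col1a1 had 3 to 104 counts in mimic libraries and 1 to 5 in control libraries. The part of these shifts in the results below was not tested.

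The mature sequence that the mimic stands for is shown first, because its seed defines the matches sought in the 10 genes; capitals mark the seed, bases 2 to 8 (RefSeq, GRCm38.p6). The labels write miR-291-3 without a letter, so the b form is shown beside it. The seeds of the 2 are not identical, and only the a form was used here.
miR-291a-3p: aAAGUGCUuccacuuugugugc
miR-291b-3p: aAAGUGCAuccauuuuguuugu

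In the 3' UTR with the greatest length among each gene's coding transcripts (GENCODE M21, GRCm38, a build other than the GRCm39 of the deposited values), 4 of the 10 genes held a 7-base match of the miR-291a-3p seed and none held the 8-base match AGCACTTA. Vhl and Vegfa held AGCACTT (7mer-m8), and Pdk1 and Arnt held GCACTTA (7mer-A1), 1 copy each. Hif1a, Egln1 and Egln3 held only the 6-base match GCACTT, and Adm, Bnip3 and Ndrg1 held none. A match of 7 or 8 bases was present in 20.9% of the 11585 tested genes whose 3' UTR is annotated. The 4 matches are shown in capitals with 11 bases on each side, on the strand of the mRNA; each is exonic and lies in the 3' UTR.
Vhl: tcccacgtcccAGCACTTtctctctgttt
Vegfa: actcttcgaggAGCACTTtgggtccggag
Pdk1: ttcagtgtattGCACTTActagctttcaa
Arnt: aagtctttgctGCACTTAaattcataccc
The Vhl stretch is chr6:113630119-113630147 on the plus strand, with the match at bases 561 to 567 of the 2064 that make up its 3' UTR. The Vegfa stretch is chr17:46018680-46018708 on the minus strand (bases 161 to 167 of 1865), the Pdk1 stretch chr2:71901879-71901907 on the plus strand (bases 1766 to 1772 of 3734), and the Arnt stretch chr3:95496129-95496157 on the plus strand (bases 747 to 753 of 1847). The Arnt transcript with the longest coding sequence has a 3' UTR of 174 bases that lacks this match.

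In the mimic libraries the pathway did not move as a block: Hif1a, Egln3, Adm and Bnip3 rose, Vhl, Vegfa and Pdk1 fell, and Arnt, Egln1 and Ndrg1 did not pass the test. The 4 rises and 3 falls among 10 genes stand beside a background in which 24.3% of the 13779 tested genes rose and 24.8% fell, 49.1% in all (quasi-likelihood test of edgeR, with a Benjamini-Hochberg adjusted p under 0.05 as threshold). In Hif1a, Egln3 and Adm all 3 mimic values lay above all 3 control values, as in 27.0% of the tested genes, and in Vhl, Vegfa and Pdk1 below, as in 27.9%. The median log2 change of the 10 genes was -0.02, and that of all tested genes -0.01. The largest rise was that of Adm, at 1.44-fold, and the largest fall that of Pdk1, to 0.746 of the control level. In bulk RNA, fewer cells with a transcript and less of it per cell cannot be told apart.

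**Figure D1:**
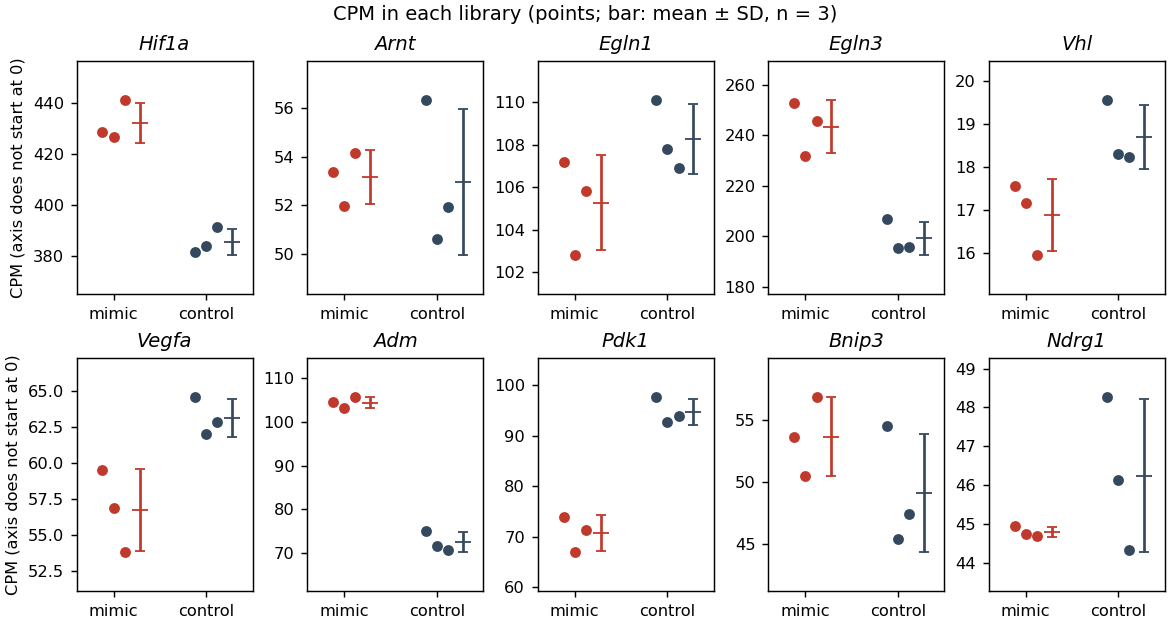
CPM (counts scaled to the library's TMM-scaled total) of the 10 genes in each of the 3 mimic and 3 control libraries, with the mean ± SD beside the points; each panel has its own axis, which does not start at 0. In Hif1a, Egln3 and Adm every mimic point lies above every control point, in Vhl, Vegfa and Pdk1 below, and in the other genes the groups overlap.

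Hif1a, the oxygen-labile subunit, was a little higher in mimic libraries. Its TMM-scaled level was 429, 427 and 441 CPM in mimic libraries and 381, 384 and 391 CPM in control libraries, so the groups did not overlap; in either direction this held for 54.9% of the tested genes. The log2 change was 0.17 ± 0.02 (SE), with a 95% interval of 0.12 to 0.21 (adjusted p = 3.93e-08, edgeR). Arnt, the partner subunit, had 53.4, 52.0 and 54.1 CPM in mimic libraries and 56.3, 50.6 and 51.9 CPM in control libraries. The control values spanned the mimic values, and the log2 change of 0.01 had an interval of -0.07 to 0.08 (adjusted p = 0.921, edgeR). Arnt thus held a 7-base match in its longer 3' UTR without passing the test in either direction.

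Of the prolyl hydroxylase genes, Egln3, which HIF induces, rose. It had 253, 232 and 246 CPM in mimic libraries and 207, 195 and 196 CPM in control libraries, without overlap. The rise was 1.22-fold (log2 change 0.29 ± 0.03, adjusted p = 1.66e-10, edgeR). Egln1 encodes the hydroxylase that does most of the work on HIF in normal oxygen. Its level was 107, 103 and 106 CPM in mimic libraries and 110.1, 108 and 107 CPM in control libraries, and the highest mimic value passed the lowest control value. The log2 change of Egln1 was -0.04, with an interval of -0.10 to 0.01 (adjusted p = 0.226, edgeR). With total counts in place of TMM, Egln1 had a log2 change of -0.10 (adjusted p = 0.00372, edgeR), and with limma on log2(FPKM + 1) of -0.07 (adjusted p = 0.0307).

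Vhl, the substrate receptor of the ligase that removes hydroxylated HIF, was lower by a small margin. It had 17.56, 17.16 and 15.95 CPM in mimic libraries and 19.56, 18.31 and 18.23 CPM in control libraries, without overlap. The log2 change was -0.15 ± 0.06 (interval -0.27 to -0.02, adjusted p = 0.0434, edgeR). This call did not hold without mimic replicate 2 (adjusted p = 0.0638), mimic replicate 3 (0.223), control replicate 1 (0.179) or control replicate 2 (0.0515), nor with DESeq2 size factors (0.0503), the DESeq2 Wald test (0.145) or no filter on low counts (0.0950).

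Among the targets, Adm, which encodes the vessel-dilating peptide adrenomedullin, moved most. It had 104.5, 103 and 106 CPM in mimic libraries and 75.1, 71.6 and 70.8 CPM in control libraries. The mimic values lay close together and far above the control values. Its log2 change of 0.53 ± 0.03 was larger in size than in 91.1% of the tested genes (adjusted p = 3.06e-15, edgeR).

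Pdk1, the kinase that inactivates pyruvate dehydrogenase and so keeps pyruvate out of the citrate cycle, went the other way. It had 74.0, 67.0 and 71.3 CPM in mimic libraries and 97.7, 92.8 and 93.9 CPM in control libraries, again far apart. Its log2 change of -0.42 ± 0.03 was larger in size than in 86.2% of the tested genes (adjusted p = 5.14e-12, edgeR). Vegfa, the growth factor for blood vessels, also fell. Its values were 59.5, 56.9 and 53.8 CPM in mimic libraries and 64.6, 62.0 and 62.9 CPM in control libraries, without overlap but with a narrow gap. Vegfa changed by -0.16 ± 0.04 on the log2 scale (interval -0.23 to -0.08, adjusted p = 6.27e-04, edgeR).

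Bnip3, a mitophagy receptor on the outer mitochondrial membrane, had 53.6, 50.5 and 56.9 CPM in mimic libraries and 54.5, 45.4 and 47.5 CPM in control libraries. Control replicate 1 lay within the mimic range. The log2 change was 0.13 ± 0.05 (interval 0.03 to 0.23, adjusted p = 0.0302, edgeR). The call did not hold without mimic replicate 3 (adjusted p = 0.196), control replicate 2 (0.208) or control replicate 3 (0.136), nor with total counts only (0.241), the DESeq2 Wald test (0.260) or limma on log2(FPKM + 1) (0.290), and without control replicate 1 the log2 change was 0.21 (adjusted p = 3.47e-04). Transcripts of 5 other loci, mostly pseudogenes, share a stretch of at least 200 bases at 95% identity or more with Bnip3 transcripts. The 4 of them listed in the count table held 258 counts over the 6 libraries, against 8902 for Bnip3, so reads could have been split. Of the 258, 171 belonged to Gm45507, which overlaps Bnip3 on the opposite strand and is given again among the antisense genes below. Genes antisense to Hif1a, Adm, Bnip3 and Ndrg1 held 38, 8, 171 and 74 counts over the 6 libraries, and whether counting used the strand was not given in the sources used here.

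Ndrg1, a stress-responsive gene first described as repressed by N-Myc, had 45.0, 44.8 and 44.7 CPM in mimic libraries and 48.3, 46.2 and 44.3 CPM in control libraries. All 3 mimic values fell inside the control range. The log2 change was -0.04, with an interval of -0.12 to 0.03 (adjusted p = 0.362, edgeR). With total counts only it was -0.10 (adjusted p = 0.0304, edgeR). Ndrg1 transcripts share a stretch of 336 bases at 99.7% identity with the antisense gene Gm17035. Gm17035 held 74 counts over the 6 libraries, against 7909 for Ndrg1, so here too reads could have been split.

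**Figure D2:**
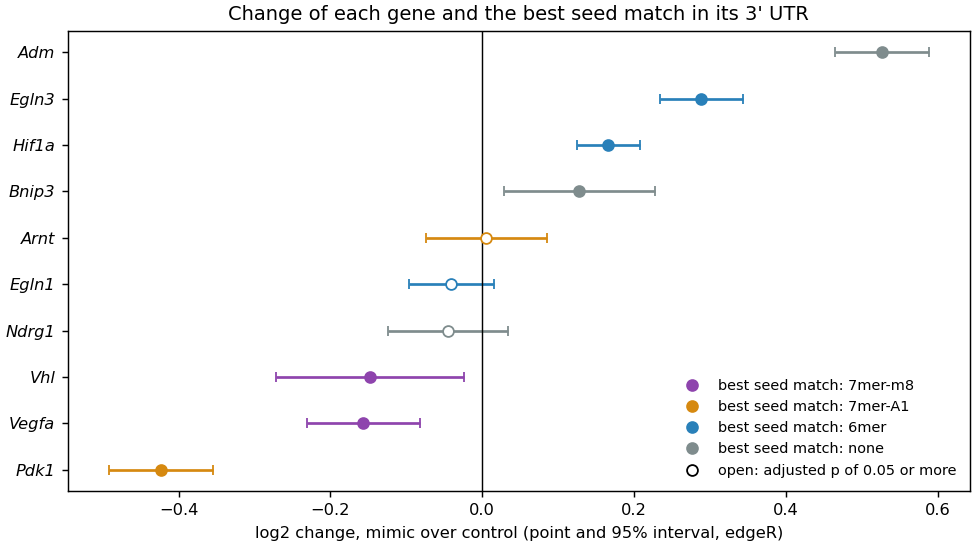
Log2 change (mimic over control, edgeR) of each gene with its 95% interval; colours give the best match of the miR-291a-3p seed in the 3' UTR, and open points did not pass the test. The 3 genes that fell hold a 7-base match, the 4 that rose hold a 6-base match or none, and Arnt holds a 7-base match at a log2 change of 0.01.

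Set beside the seed matches, the 4 genes with a 7-base match had log2 changes of -0.42 to 0.01, and the 6 without one -0.04 to 0.53. The 3 genes that fell, Pdk1, Vegfa and Vhl, all held a 7-base match, and none of the 4 that rose, Hif1a, Egln3, Adm and Bnip3, held one. Vhl lost its call under 7 of the 14 alternatives, which left Pdk1 and Vegfa as the genes that fell. The split did not hold with total counts only or with limma at both pseudocounts, where Egln1, which holds a 6-base match, also fell. Ndrg1, which holds no match, also fell with total counts only. Under the other alternatives each gene that fell held a 7-base match and no gene that rose did. Over all tested genes with a 3' UTR, falls were not confined to genes with a match. Of genes whose best match was a 7mer-m8, 36.5% of 1634 fell, and of those with a 7mer-A1, 35.7% of 373. The share that fell was 49.3% of 416 with an 8-base match, 30.1% of 1443 with a 6-base match and 23.6% of 7719 with no match. Rises over all genes were not counted by match, so the lack of a 7-base match in the 4 that rose has no such share beside it. Of these background genes 20.9% held a match of 7 or 8 bases, so most genes lack one. The largest fall among the 10, that of Pdk1, went with a 7mer-A1 match in a 3' UTR of 3734 bases, the longest of the 10. These are descriptions of 10 chosen genes, and whether the mimic acts through any of the matches was not tested.

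**Figure D3:**
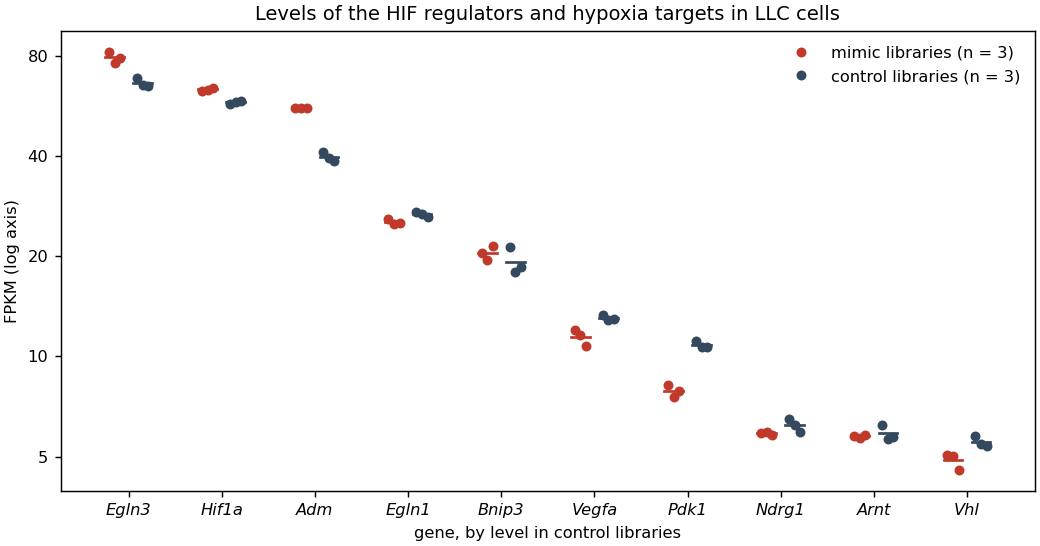
Level of each gene as the authors' FPKM (fragments scaled to transcript length and library size, log axis) in 3 mimic and 3 control libraries; points are libraries and bars are means. Egln3, Hif1a and Adm lead in both groups, and the order of the 10 means is the same in both.

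Levels per transcript length, from the deposited FPKM table, spanned a range from Egln3 at 79.2 ± 2.92 FPKM in mimic libraries and 66.4 ± 2.14 in control libraries (SD, n = 3 each) to Vhl at 4.88 ± 0.279 and 5.54 ± 0.214. Hif1a followed at 63.5 ± 0.649 FPKM in mimic libraries and 58.0 ± 0.690 in control libraries, and Adm at 55.8 ± 0.0874 and 39.7 ± 1.25. Egln1 had 25.4 ± 0.393 FPKM in mimic libraries and 26.7 ± 0.425 in control libraries, Bnip3 20.5 ± 1.0 and 19.2 ± 1.83, Vegfa 11.5 ± 0.644 and 13.1 ± 0.248, and Pdk1 7.87 ± 0.346 and 10.8 ± 0.275. Ndrg1 stood at 5.88 ± 0.0656 FPKM in mimic libraries and 6.22 ± 0.271 in control libraries, and Arnt at 5.75 ± 0.0569 and 5.87 ± 0.321. The order was the same in both groups. In control libraries the values of Ndrg1 and Arnt overlapped, as did those of Arnt and Vhl, while in mimic libraries no neighbours overlapped. Thus the transcript of the inducible hydroxylase Egln3 was present at a higher level than that of Egln1 in both groups, and Hif1a at a higher level than its partner Arnt.

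The promoters of the gene that rose most and the gene that fell most are shown, since both are hypoxia targets that moved in opposite directions. Capitals mark the core of the hypoxia response element, ACGTG or GCGTG, read on either strand (CACGT or CACGC), with CACGTG counted once. Each promoter runs from 250 bases before to 50 bases after the annotated start (RefSeq, GRCm38.p6). The Adm promoter is chr7:110627407-110627706 and the Pdk1 promoter chr2:71872974-71873273, both on the plus strand.
Adm: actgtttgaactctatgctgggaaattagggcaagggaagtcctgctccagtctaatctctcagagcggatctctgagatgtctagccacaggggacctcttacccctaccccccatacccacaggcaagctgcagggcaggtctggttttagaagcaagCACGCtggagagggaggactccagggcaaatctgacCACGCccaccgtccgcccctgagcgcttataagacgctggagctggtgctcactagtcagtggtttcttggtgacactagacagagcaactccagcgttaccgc
Pdk1: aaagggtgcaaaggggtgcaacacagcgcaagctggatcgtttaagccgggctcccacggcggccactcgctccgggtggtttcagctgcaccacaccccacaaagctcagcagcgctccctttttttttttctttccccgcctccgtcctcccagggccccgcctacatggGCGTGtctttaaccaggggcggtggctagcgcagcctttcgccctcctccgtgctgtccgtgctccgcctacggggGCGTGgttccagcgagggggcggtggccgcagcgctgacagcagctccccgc
Both hold 2 cores, as Egln1 and Hif1a do in their promoters. Bnip3 holds 4, Arnt and Egln3 hold 1, and Vhl holds none. Vegfa has 2 starts in the table, of which the upstream one holds none and the other 2. The window of that other Vegfa start, chr17:46025114-46025413, lies inside the gene. The other Pdk1 start holds none. Of 12428 promoters of tested genes, 62.3% hold at least 1 core and 30.4% at least 2. The count was 1 to 4 in the promoters of the genes that rose and 0 to 2 in those of the genes that fell. These ranges overlap, and the 4 is that of Bnip3 alone. Pdk1 and Vegfa, which fell, have 2 starts each, 1 without a core and the other with 2. A core in this window is not a measured binding site. Ndrg1 is not in the table.

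**Figure D4:**
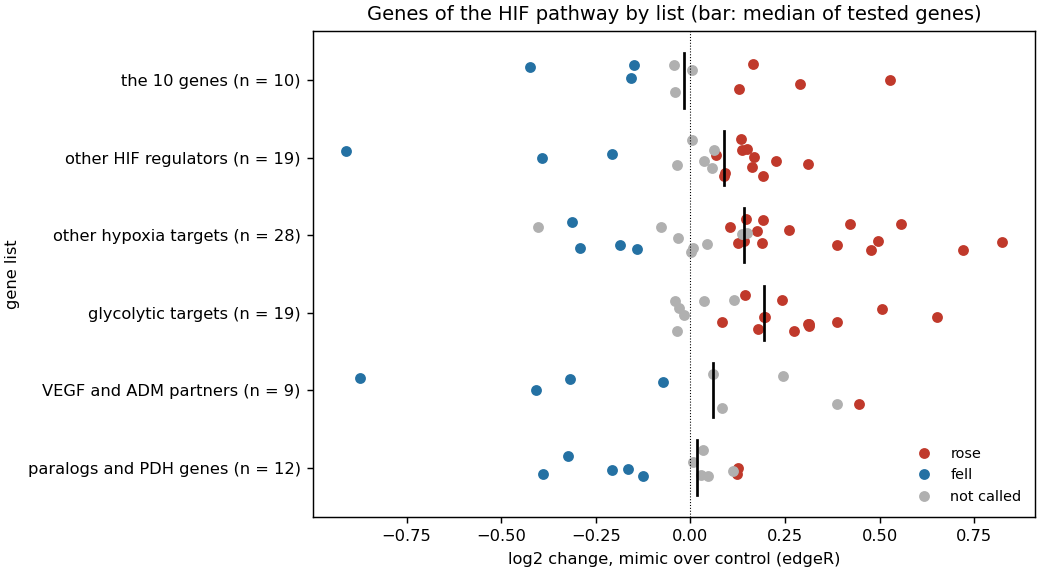
Log2 change (mimic over control, edgeR) of every tested gene of each HIF pathway list, one point per gene, coloured by call, with the median as a bar; vertical scatter within a row has no meaning. The glycolytic targets have 13 rises and no fall and a median of 0.19, while the 10 genes have 4 rises, 3 falls and a median of -0.02. Egln2 and Bnip3l appear both among the paralogs and in an earlier list.

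Most other regulators of HIF that passed the test rose by small amounts, and Os9, Hif1an and Egln2 fell. Of 23 listed, 19 were tested, and 11 rose and 3 fell, with a median log2 change of 0.09; of all tested genes 24.3% rose and 24.8% fell, with a median of -0.01. Among those that fell was Hif1an, the asparaginyl hydroxylase that blocks HIF from binding its coactivators, at 35.1 ± 0.292 CPM in mimic libraries and 46.0 ± 0.956 CPM in control libraries (log2 change -0.39 ± 0.04, adjusted p = 7.44e-10, edgeR). Egln2, the third prolyl hydroxylase gene, fell with a log2 change of -0.21. Os9, which encodes a lectin of the endoplasmic reticulum, had the largest fall of the list, to 46.3 ± 2.85 CPM in mimic libraries against 87.0 ± 1.40 CPM in control libraries. Siah2, a ubiquitin ligase that targets prolyl hydroxylases, rose 1.24-fold, and the chaperone genes Hsp90aa1 and Hsp90ab1, whose products bind the alpha subunit, rose 1.17-fold and 1.12-fold. With total counts only 5 of the list rose and 4 fell, and with limma on log2(FPKM + 1) 6 rose and 3 fell. The alpha subunit genes Epas1 and Hif3a and the beta subunit gene Arnt2 had at most 5 counts in any library and were not tested, so of the subunit genes listed Hif1a and Arnt were the ones tested.

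Among hypoxia targets outside glycolysis, of 33 listed, 28 were tested, and 16 rose and 4 fell, with a median log2 change of 0.14. The share over all tested genes was 24.3% for rises and 24.8% for falls, beside this count and that of the glycolytic targets. The lipid droplet gene Plin2 rose 1.39-fold, the transferrin receptor gene Tfrc 1.31-fold and the heme oxygenase gene Hmox1 1.65-fold, although each of these answers to other signals besides HIF. The transcription factor gene Bhlhe41 fell with a log2 change of -0.31, the Myc antagonist gene Mxi1 with -0.29 and the histone demethylase gene Kdm4b with -0.19. Of the 19 glycolytic targets, all tested, 13 rose and none fell (edgeR; none also at an unadjusted p under 0.05, and none by the DESeq2 Wald test), with a median of 0.19. Slc2a1, the glucose transporter, rose 1.42-fold, to 194.5 ± 4.70 CPM in mimic libraries against 137 ± 3.37 CPM in control libraries, and the enolase gene Eno1 and the pyruvate kinase gene Pkm each rose 1.24-fold. With total counts only, 11 of the glycolytic targets rose and 4 fell. That scaling moved the share of falls among all called genes to 65.5%, in place of 50.5%. Within this pathway Pdk1 and Vegfa thus fell while most listed targets that passed the test rose, and the difference between Pdk1 or Vegfa and the other targets was not itself tested.

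**Figure D5:**
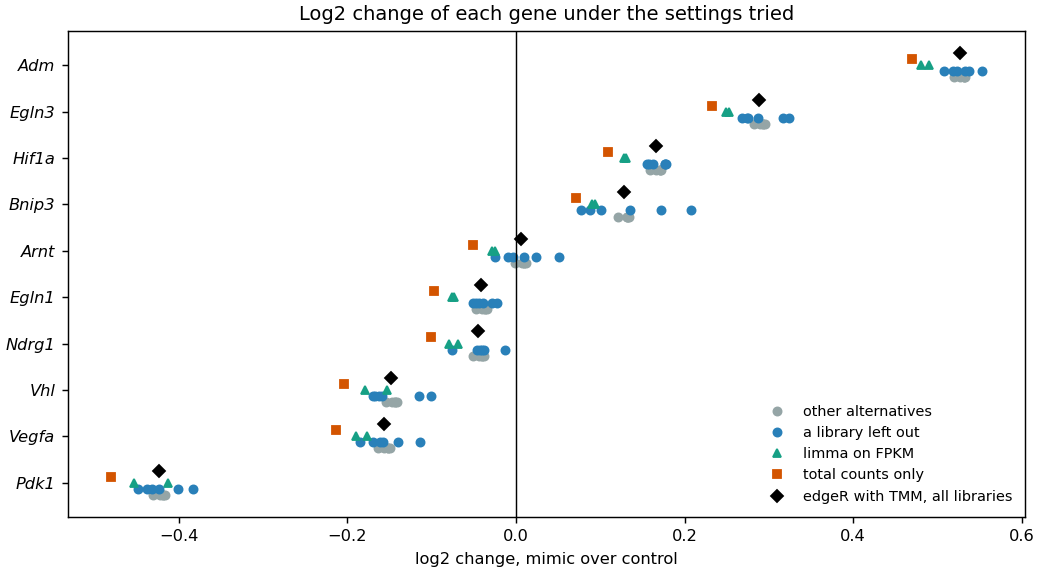
Log2 change of each of the 10 genes under every setting tried: edgeR with TMM, total counts only, limma on FPKM, each library left out, and the other alternatives. Adm, Egln3 and Hif1a lie to the right of 0 and Pdk1 and Vegfa to the left under each of them, while Arnt falls on both sides.

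Of the 10 genes, 5 kept their call and direction under all 14 alternatives to scaling, test, filter, unit, block and library set. Adm ranged from 0.47 to 0.55 on the log2 scale, Egln3 from 0.23 to 0.32, Hif1a from 0.11 to 0.18, Pdk1 from -0.48 to -0.38 and Vegfa from -0.21 to -0.11. The least certain of these 5 was Vegfa, with adjusted p of at most 0.0205.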

How the data were processed

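The 6 libraries were grouped by their titles (3 mimic, 3 control). Per the labels' protocols, polyadenylated RNA was made into strand-specific libraries. HISAT2, DESeq2 and GRCm39 are named in the submitters' processing notes; how reads were counted, with which strand setting and annotation, is not given in the sources used here. Whole-number read counts for 24794 genes were deposited by the authors, who also deposited FPKM values, rounded to 2 decimals, for 24494.

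The count test ran in edgeR 4.0.16 under R 4.3.3 (filterByExpr, TMM, glmQLFit, glmQLFTest, Benjamini-Hochberg over 13779 genes, threshold 0.05). CPM used TMM-scaled totals, an SE is the log2 change over the square root of F, and 95% intervals use edgeR's degrees of freedom. The biological coefficient of variation was 2.02%. Pairs of libraries of a group differed by more than sampling noise (mean chi-square per gene 1.84 to 2.23). The test was checked on simulated data with changes of 1.2, 1.5 and 2-fold in 66, 67 and 64 of the tested genes. It recovered 71.2%, 74.6% and 92.2% of these, and called 5 of 13443 unchanged genes. In the measured data 49.1% of the tested genes were called, a far larger share than was changed in the simulation. The simulation therefore cannot give the error rate of the calls made here. Smaller changes, such as those of Hif1a and Bnip3, were not simulated. Alternatives used DESeq2 1.42.0, limma 3.58.1, other scalings and filters, and each library left out. Seed and promoter matches were read with Python 3.11.15, and shared stretches sought with BLAST 2.17.0 among GENCODE M21 transcripts.

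The members and lists were chosen with earlier results of these data known. The text names the 10 genes and, of each list, up to 3 risen and 3 fallen called genes with the smallest adjusted p and a mean of at least 2 CPM; others are said to be named after their values were seen. Epcam, Cdh1, Krt8, Vim, Ptprc, Epas1, Hif3a and Arnt2 are given as marker or level checks. Pdgfra, Lum and Col1a1, of the fibroblast list, were not picked by this rule and were named after their values were seen.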

Additional observations from a re-analysis of the deposited data

How the results depend on the processing

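With total counts only, 5 of the 10 genes fell in place of 3, 5 other HIF regulators rose in place of 11, 4 glycolytic targets fell in place of none, and 0 paralogs and pyruvate dehydrogenase genes rose in place of 2. Over all genes the split of rises and falls was then 2341 and 4444, in place of 3349 and 3423. With limma on FPKM at pseudocounts of 1 and 0.1, 6 other HIF regulators rose under each, 0 paralogs and pyruvate dehydrogenase genes rose, and at pseudocount 1 there were 2 VEGF and adrenomedullin partner genes that rose in place of 1; rises over all genes were 2323 and 2330. Arnt, at 0.01, had a log2 change of -0.051 with total counts only, -0.0013 with the filter of 2 CPM, -0.024 and -0.028 with limma at pseudocounts 1 and 0.1, and -0.025 to 0.051 with a library left out. With a library left out, 0 to 1 glycolytic targets fell (the 1 without control replicate 2) and 1 to 3 paralogs and pyruvate dehydrogenase genes rose. Same-numbered libraries did not deviate together (correlations 0.0196, 0.0748 and 0.0547), so the numbers were not taken as pairs; with the replicate block, 3403 genes rose and 3484 fell, and 4 and 3 of the 10. The causes of these shifts were not tested. Changes of Vhl, the least counted gene at 438 to 613 counts per library, are the most limited by depth.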

Other observations

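Of 15 genes for VEGF family ligands and receptors, the adrenomedullin receptor and the related peptide ligands Adm2 and Calca, 9 were tested, and 1 rose and 4 fell, beside 24.3% and 24.8% of all tested genes. Ramp2, whose product pairs with the calcitonin receptor-like receptor to bind adrenomedullin, rose to 107 ± 2.64 CPM in mimic libraries, against 78.6 ± 3.63 CPM in control libraries (log2 change 0.45 ± 0.03, adjusted p = 5.52e-13, edgeR). Calcrl, the gene of that receptor, fell to 7.26 ± 0.144 CPM in mimic libraries, against 9.61 ± 0.704 CPM in control libraries (log2 change -0.41 ± 0.09, adjusted p = 2.50e-04, edgeR). The lymphatic growth factor gene Vegfc fell to 2.30 ± 0.0639 CPM in mimic libraries, against 4.21 ± 0.403 CPM in control libraries. The co-receptor gene Nrp2 fell with a log2 change of -0.07. The VEGF receptor genes Flt1 and Flt4 had at most 11 counts in any library and were not tested; they were named after their values were seen.

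Among 12 tested paralogs of the 10 genes and genes of the pyruvate dehydrogenase step, 2 rose and 5 fell, beside the same shares of 24.3% and 24.8% over all tested genes. Egln2, which fell, was also counted among the other HIF regulators, and Bnip3l, which rose, among the hypoxia targets outside glycolysis. Pdk1 fell together with Pdp1, the phosphatase that undoes its work on pyruvate dehydrogenase, at 21.3 ± 1.13 CPM in mimic libraries and 26.6 ± 0.772 CPM in control libraries (log2 change -0.32 ± 0.05, adjusted p = 6.45e-06, edgeR). The kinase gene Pdk3, named after its value was seen, fell with a log2 change of -0.12. Pdk2 and Pdk4, also named after their values were seen, had at most 2 counts in any library. Bnip3l, the paralog of Bnip3, rose 1.09-fold, a call lost under 3 of the 14 alternatives, among them total counts (edgeR adjusted p = 0.0809). Ndrg4 fell with a log2 change of -0.39, while Ndrg3 rose 1.09-fold. The Ndrg3 call was lost under 4 of the 14 alternatives, among them total counts (edgeR adjusted p = 0.174).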
